A study of Mus musculus with 30 samples.

Results

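Accessible chromatin was examined at 10 mouse genes that are targets of serum response factor (SRF) and its actin-sensing cofactors, the myocardin-related transcription factors (MRTFs): Acta2, Actb, Actg1, Actg2, Tagln, Cnn1, Tpm1, Myl9, Vcl and Srf. A region of accessible chromatin was assigned to a gene when the nearest protein-coding transcription start site (TSS), within 50 kb, belonged to that gene. By this rule 95 of the 305931 regions of the 24 h table and 123 of the 369846 regions of the 4 h table were assigned to 9 of the 10 genes. No region was assigned to Actg1, so cytoplasmic gamma-actin is not described further. Vcl held 23 regions at 24 h and 30 at 4 h, Tpm1 21 and 31, Actb 13 and 15, Acta2 11 and 18, Srf 7 and 9, Actg2 6 and 7, Myl9 6 and 6, Tagln 5 and 4, and Cnn1 3 and 3.

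ATAC-seq, in which a transposase inserts sequencing adapters into open DNA, was compared in 21 of the 30 libraries of the study, in 7 groups of 3. Marrow-derived mesenchymal stem cells (MSCs), taken from the bone marrow of C57BL/6J mice, were left as controls or treated for 24 h with CK666, which inhibits the branching factor Arp2/3, or with cytochalasin D (CytoD), which blocks growth of actin filaments. MSCs and NIH 3T3 cells, an embryonic fibroblast line, were in a further experiment controls or treated with CK666 for 4 h. The labels give C57BL/6J and male for every library, the fibroblast line included, and do not say whether the 3 libraries of a group came from separate cultures or animals, so p-values measure only the spread between these libraries. NIH 3T3 stands for fibroblasts through a single established line. Total counts were between 14071301 and 22352180 per library at 24 h, between 29239381 and 34979833 in MSCs at 4 h and between 14496058 and 27866363 in NIH 3T3 cells, so the fibroblast CK666 libraries were the shallower ones of their experiment. At the TSS of stromal marker genes the mean normalised count per kb was 308 in the 24 h MSC controls and 355 in the 4 h MSC controls, against 46.4 and 119.8 for blood markers, 44.7 and 54.99 for endothelial markers, and 84.4 and 99.0 for smooth muscle markers. These means cover only markers with a tested TSS region. At 24 h these were 7 of 11 stromal (not Thy1, Eng, Lepr and Ly6a), 4 of 7 blood, 2 of 5 endothelial and 5 of 6 smooth muscle markers. At 4 h they were 9 of 11 (not Eng and Ly6a), 4 of 7, 4 of 5 and 5 of 6. In bulk libraries, fewer cells with an open region and a less open region in each cell cannot be told apart.

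Monomeric actin holds MRTFs in the cytoplasm and keeps them inactive. When monomers are used up in filaments, MRTFs enter the nucleus and act with SRF on the CArG box, a short element with CC at one end, GG at the other and only A or T between. The genes they switch on encode actin itself and the proteins that bundle, contract and anchor filaments. In mesenchymal cells several of them also mark the contractile or myofibroblast-like state, and Srf is itself a target.

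Exact CArG boxes were frequent in the regions of these genes. At 4 h 22 of the 123 regions held at least 1 box (17.9%), against 3.85% of all 369846 regions, and at 24 h 23 of 95 (24.2%), against 4.16%. Regions differ in length, and those with a box were longer, with a median of 637 bp against 589 bp over all regions at 4 h. Within the central 500 bp, where length is equal, a box lay in 13.8% of the genes' regions and in 2.71% of all regions at 4 h, and in 15.8% and 2.62% at 24 h. Of the 16 regions at 4 h that contained a TSS of one of the genes, 9 held a box (56.3%), against 4.41% of all regions with a protein-coding TSS. The genes were chosen as targets of SRF, which acts on this element, so the shares are not independent of that choice. A box is a match of letters and was not measured as a site of SRF binding.

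The boxes in the TSS regions, and some of those in other regions described below, are given here so that they can be set beside the values. Each run has 30 bases, is written 5′ to 3′ on the strand of its gene (mm10, which is GRCm38, in the reference sequence of that build) and has the box in capitals. Distances are from the 5′ end of the gene to the middle of the box.
Acta2, upstream, chr19:34265824-34265853, minus strand: agctgccttcCCTTATAAGGttaaggttct
Acta2, intron, 1297 bp downstream, chr19:34254278-34254307, minus strand: gtgtgttttaCCTAATTAGGaaatgctccc
Actb, promoter, 29 bp upstream, chr5:142906768-142906797, minus strand: ccgaaagttgCCTTTTATGGctcgagtggc
Actb, exon of at least 1 transcript, 901 bp downstream, chr5:142905838-142905867, minus strand: ccagcgtttgCCTTTTATGGtaataatgcg
Actb, past the 3′ end, 5199 bp downstream, chr5:142901540-142901569, minus strand: tccatctttgCCATTAAAGGatcccaagcg
Actg2, promoter, 27 bp upstream, chr6:83536277-83536306, minus strand: cgtcagctggCCTTTTTAGGgactctgttt
Actg2, promoter, 64 bp upstream, chr6:83536314-83536343, minus strand: aaaaaaaacaCCTTATATGGtaatattgct
Tagln, promoter, 108 bp upstream, chr9:45936151-45936180, minus strand: agggtcctgcCCATAAAAGGtttttcccgg
Tagln, 5′ UTR, 15 bp downstream, chr9:45936028-45936057, minus strand: gtgtctttccCCAAATATGGagcctgtgtg
Cnn1, intron, 915 bp downstream, chr9:22100116-22100145, plus strand: agccgccgcgCCTTATAAGGcggccttggg
Tpm1, intron, 8362 bp downstream, chr9:67041029-67041058, minus strand: cctttcttgaCCATATAAGGgcaggagttt
Tpm1, intron, 3027 bp downstream, chr9:67046364-67046393, minus strand: gagagatattCCATATAAGGaaaggaattc
Myl9, promoter, 112 bp upstream, chr2:156775293-156775322, plus strand: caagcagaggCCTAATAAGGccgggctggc
Vcl, far upstream, chr14:20903262-20903291, plus strand: tagctaacttCCAAAAATGGctttcggcac
Vcl, promoter, 222 bp upstream, chr14:20929161-20929190, plus strand: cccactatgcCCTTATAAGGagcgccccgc
Vcl, intron, 686 bp downstream, chr14:20930069-20930098, plus strand: gctcttagctCCTTTTTAGGcctctcctct
Srf, promoter, 45 bp upstream, chr17:46556205-46556234, minus strand: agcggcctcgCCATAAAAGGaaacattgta
Srf, promoter, 65 bp upstream, chr17:46556225-46556254, minus strand: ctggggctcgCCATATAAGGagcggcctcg
The upstream Acta2 box, the Cnn1 box and the promoter box of Vcl have the same 10 letters, and so have the Actb boxes at 29 bp upstream and 901 bp downstream. The Tpm1 boxes and the Srf box at 65 bp upstream also share their 10 letters. So do the promoter box of Tagln and the Srf box at 45 bp upstream. Actg2, Tagln, Vcl and Srf each hold a pair of boxes within the region of their TSS.

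After 4 h of CK666, regions of these genes in MSCs lost accessibility at more places than they gained it. Of 110 tested regions, 8 passed an adjusted p under 0.01 with a log2 fold change below -1, in 5 genes (Actb 3, Vcl 2, and Acta2, Myl9 and Tpm1 1 each), where 0.427% of all 306819 tested regions did. In the opposite direction edgeR's quasi-likelihood test passed 0 of them, against 0.59% of all regions. There were 11 with higher counts at an unadjusted p under 0.05, and DESeq2 also found 0 gained. At an adjusted p under 0.05 with no fold limit, 21 regions were lower and 3 higher, where 3.81% and 3.56% of all regions were. The median log2 fold change was -0.07 over the genes' regions and 0.00 over all regions. In place of 21 lower regions DESeq2 found 13, and the fit of all 12 libraries 11. Without MSC control library 2 the 21 lower regions became 12, and without CK666 library 3 or control library 1 or 2 the 8 lost regions became 5.

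In NIH 3T3 cells 3 of 114 tested regions were lost after 4 h of CK666, 1 at Actb and 2 at Tpm1, where 1.67% of all 331963 tested regions were lost. By edgeR 0 were gained, against 1.87% of all, while 9 were higher at an unadjusted p under 0.05 and DESeq2 found 0 gained. At an adjusted p under 0.05, 18 regions were lower and 3 higher, where 7.26% and 5.89% of all regions were, and the medians were -0.05 and 0.04. Without NIH 3T3 CK666 library 3 the 18 lower regions became 9, and without CK666 library 2 the 3 lost regions became 7. In both cell types the lower regions included the start of the smooth muscle actin gene, the far side of the Actb 3′ end, and the promoters of Tagln and Myl9. Normalised counts given for single libraries at 4 h come from the normalisation of all 12 libraries of that experiment, and log2 fold changes, with their standard errors, from the fit of each cell type.

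**Figure D1:**
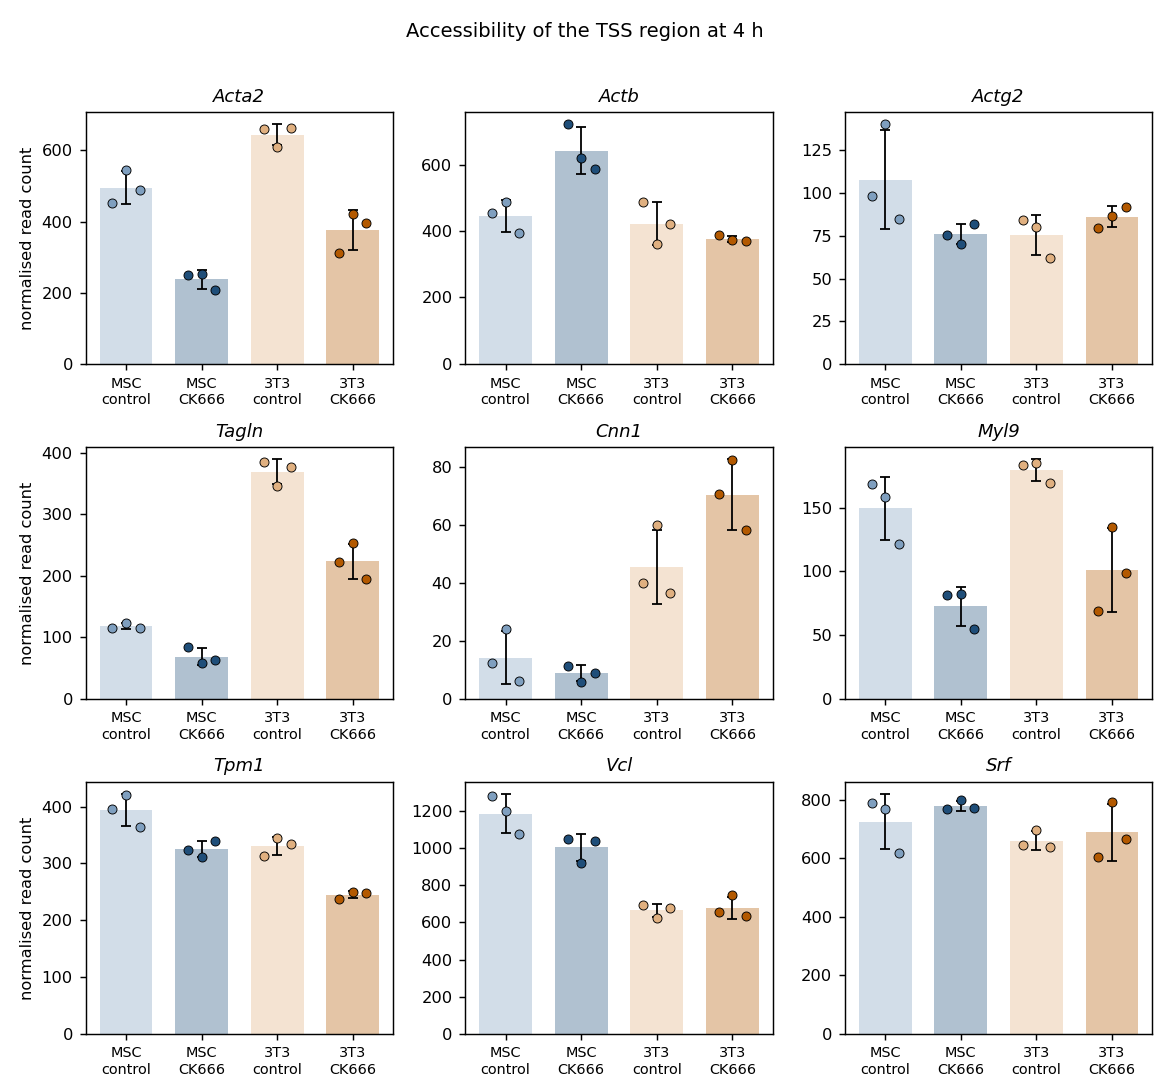
Normalised counts in the TSS region of each of 9 genes after 4 h, one panel per gene, in MSCs and NIH 3T3 cells with and without CK666. Bars give the mean of 3 libraries, error bars the SD and points the single libraries. At Acta2, Tagln, Myl9 and Tpm1 all CK666 points lie below all control points in both cell types, and at Srf they overlap.

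Acta2 encodes alpha smooth muscle actin, the actin of contractile cells and myofibroblasts. Its TSS region (chr19:34255045-34255926) had 452, 489.5 and 545 normalised counts in the MSC control libraries and 208, 251 and 253 with CK666. The NIH 3T3 counts were 611, 659.7 and 662 without CK666 and 312, 396 and 421 with it. The groups did not overlap in either cell type. The log2 fold change was -1.07 ± 0.09 in MSCs (SE, n = 3 per group, adjusted p = 4e-15) and -0.75 ± 0.13 in NIH 3T3 cells (adjusted p = 1.5e-05). This region held no exact CArG box. The neighbouring region, which holds the intronic box at 1297 bp and an internal annotated start (chr19:34254059-34254882) changed less, by -0.42 in MSCs (adjusted p = 0.035) and -0.48 in NIH 3T3 cells (adjusted p = 0.012), and its call rested on single libraries, among them MSC control library 2 and NIH 3T3 CK666 library 3.

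A region upstream of Acta2 (chr19:34265546-34266122), which holds the upstream box, moved with the start site. Its counts were 372, 388 and 409 in MSC controls and 192, 211 and 229 with CK666. NIH 3T3 libraries had 491, 497 and 539 without and 276, 356 and 378 with CK666. Again the groups were separate, with log2 fold changes of -0.89 ± 0.10 (adjusted p = 6.9e-11) and -0.57 ± 0.13 (adjusted p = 0.0015).

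Actb encodes beta-actin, the main actin of the cytoskeleton of non-muscle cells. Reads in its exons are uncertain, since the mouse genome holds processed copies of it. The region just past its 3′ end that holds the box at 5199 bp (chr5:142901259-142901801) had 168, 242 and 268 counts in MSC controls, 81.9, 105 and 105 with CK666, 229, 235 and 245 in NIH 3T3 controls and 119.7, 128 and 139 with CK666. It fell in both, with log2 fold changes of -1.22 ± 0.14 (adjusted p = 3.7e-10) and -0.85 ± 0.15 (adjusted p = 3.5e-05). The next region downstream (chr5:142899781-142901099) fell further in NIH 3T3 cells, from 214, 239.7 and 293 counts to 69.1, 69.1 and 76.9 (-1.78 ± 0.17, adjusted p = 1.6e-12), and in MSCs from 138, 146 and 162 to 59.1, 69.2 and 75.5 (-1.14 ± 0.17, adjusted p = 2e-07). CK666 and control libraries did not overlap in any of these 4 comparisons.

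At the Actb gene and around its 3′ end the cell types differed. At the 3′ end of the gene (chr5:142901819-142903390) MSC counts went from 543, 575 and 579 to 244, 252 and 319 (-1.07 ± 0.09, adjusted p = 3.2e-16). NIH 3T3 counts were 372, 456 and 474 without and 334, 348 and 426 with CK666 (-0.21, adjusted p = 0.33). The difference between the log2 fold changes, tested as an interaction in the 12 libraries, was 0.83 ± 0.17 (adjusted p = 0.00069). The region that contains a TSS and the box at 901 bp (chr5:142905738-142906303) moved the other way in MSCs, from 394, 455 and 487 counts to 585, 619.8 and 721 (0.52 ± 0.08, adjusted p = 1e-06). In NIH 3T3 cells it had 359, 420.2 and 487 counts without and 371, 372 and 387 with CK666 (-0.14 ± 0.13, adjusted p = 0.54), and the interaction was -0.69 ± 0.16 (adjusted p = 0.0044). The region at the annotated 5′ end with the promoter box (chr5:142906529-142907055) fell in NIH 3T3 cells from 333, 374 and 415 counts to 230.2, 238 and 293 (-0.53 ± 0.14, adjusted p = 0.0049), a call that was lost without CK666 library 3 or control library 3. In MSCs its log2 fold change was -0.27 (adjusted p = 0.096).

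Actg2 encodes the enteric form of smooth muscle actin. Its TSS region (chr6:83535724-83537356), with its pair of boxes, had 85.0, 98.5 and 140.2 counts in MSC controls and 70.1, 75.5 and 81.8 with CK666 (-0.51 ± 0.18, adjusted p = 0.065). The NIH 3T3 values were 62.2, 79.9 and 84.2 without and 79.8, 86.8 and 92.1 with CK666 (0.22 ± 0.20, adjusted p = 0.52). Neither passed the test. An intronic region (chr6:83534397-83535491) and an upstream one (chr6:83541346-83542532) rose in NIH 3T3 cells by 1.25 ± 0.39 (adjusted p = 0.024) and 0.59 ± 0.19 (adjusted p = 0.027), but neither call held without NIH 3T3 CK666 library 3 or without control library 2 or 3.

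Tagln encodes transgelin, an actin-binding protein of smooth muscle and activated fibroblasts. Its TSS region (chr9:45935737-45936304), with boxes on both sides of the start, had 115, 116 and 123 counts in MSC controls, and 58.3, 62.9 and 84.1 with CK666. NIH 3T3 controls had 346, 376 and 384, and CK666 libraries 195, 223 and 253. The log2 fold changes were -0.80 ± 0.18 (adjusted p = 0.00093) and -0.70 ± 0.14 (adjusted p = 0.00016), with no overlap in either cell type. The untreated cell types themselves stood further apart, with NIH 3T3 above MSC controls by 1.64 ± 0.14 (adjusted p = 3.2e-17).

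Myl9 encodes a regulatory light chain of non-muscle and smooth muscle myosin. The region of its TSS and box (chr2:156775037-156775644) had 121, 158 and 169 counts in MSC controls and 54.8, 81.2 and 81.9 with CK666, and 169, 184 and 185 in NIH 3T3 controls and 69.1, 99.1 and 135 with CK666. The groups did not overlap. The log2 fold change was -1.04 ± 0.17 in MSCs (adjusted p = 2.5e-06) and -0.78 ± 0.17 in NIH 3T3 cells (adjusted p = 0.00085).

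Cnn1 encodes calponin, another smooth muscle actin-binding protein. Its TSS region (chr9:22098938-22099474) was thinly covered, with 6.07, 12.2 and 24.0 counts in MSC controls and 5.91, 8.99 and 11.5 with CK666 (-0.69 ± 0.52, adjusted p = 0.52). In NIH 3T3 cells it had 36.4, 40.0 and 59.9 counts without and 58.0, 70.6 and 82.4 with CK666 (0.64 ± 0.24, adjusted p = 0.067). Neither change passed, while the NIH 3T3 controls were above the MSC controls by 1.69 ± 0.34 (adjusted p = 2e-05).

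Tpm1 encodes a tropomyosin, which winds along filaments and controls access of myosin and Arp2/3. The region of its upstream TSS (chr9:67047944-67049656) had 364, 396 and 420.4 counts in MSC controls and 312, 323 and 339.8 with CK666 (-0.28 ± 0.09, adjusted p = 0.042). NIH 3T3 counts were 313, 334 and 345 without and 238, 248 and 249 with CK666 (-0.41 ± 0.14, adjusted p = 0.034). Libraries did not overlap, but each call was lost when any of several single libraries was left out, CK666 library 1 among them in both cell types. Below the gene, a region at chr9:67019806-67020436 fell from 72.1, 76.6 and 86.4 counts to 25.3, 27.6 and 31.0 in NIH 3T3 cells (-1.45 ± 0.25, adjusted p = 1.8e-05), and in MSCs from 50.6, 52.8 and 73.1 to 15.3, 40.5 and 43.0 (-0.84, adjusted p = 0.029, not passing without control library 2 or CK666 library 3). A weak region beside it (chr9:67021377-67021963) had 17.2, 19.3 and 21.02 counts in MSC controls and 0.96, 1.69 and 3.60 with CK666, a log2 fold change of -3.13 ± 0.63 (adjusted p = 0.00021).

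At Tpm1, 3 regions changed differently in the cell types by the interaction test, each lower with CK666 in NIH 3T3 cells relative to MSCs. The intronic region with the box at 8362 bp (chr9:67040775-67042058) had 101, 104 and 140.2 counts in MSC controls and 140.5, 149 and 151 with CK666 (0.35, adjusted p = 0.16). In NIH 3T3 cells it went from 101, 104 and 117 to 36.8, 45.0 and 53.8 (-1.21 ± 0.21, adjusted p = 2.1e-05), and the interaction was -1.58 ± 0.26 (adjusted p = 2.3e-05). The region of an internal TSS (chr9:67043680-67044253) showed the same split on a smaller scale. Its counts were 280.2, 299 and 331 in MSC controls and 348, 377 and 413 with CK666, against 282, 339 and 342 in NIH 3T3 controls and 199, 203 and 270.2 with CK666. The log2 fold changes were 0.32 ± 0.10 (adjusted p = 0.025) and -0.50 ± 0.14 (adjusted p = 0.013), with an interaction of -0.84 ± 0.18 (adjusted p = 0.0015). Past the 3′ end (chr9:67011492-67012093) MSC counts were 26.0, 34.4 and 34.5 without and 50.6, 50.7 and 57.5 with CK666 (0.74, adjusted p = 0.058, not passing). NIH 3T3 counts were 42.5, 50.7 and 64.1 without and 23.0, 24.6 and 37.3 with CK666 (-0.86, adjusted p = 0.035). The interaction there was -1.62 ± 0.39 (adjusted p = 0.0053). The interaction held in these 3 regions whichever library was left out, while each call within a cell type at the last 2 was lost without some single library.

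Vcl encodes vinculin, which links filaments to integrin and cadherin adhesions. Its TSS region (chr14:20928924-20930298), with boxes on either side of the start, had 1076, 1202 and 1283 counts in MSC controls and 923, 1038 and 1052 with CK666 (-0.25 ± 0.06, adjusted p = 0.0059, not passing without CK666 library 2 or control library 1). NIH 3T3 counts were 625, 679.5 and 692 without and 638, 654 and 747 with CK666 (0.05 ± 0.12, adjusted p = 0.83). Inside the gene, a region with few counts (chr14:21008586-21009492) fell in MSCs from 23.3, 34.5 and 41.0 counts to 9.29, 13.4 and 14.4 (-1.42 ± 0.36, adjusted p = 0.0044, not passing without control library 2), whereas NIH 3T3 libraries had 4.32, 8.61 and 12.2 without and 12.1, 14.0 and 15.3 with CK666. The interaction there was 2.09 ± 0.63 (adjusted p = 0.038) and was lost in 8 of the 12 fits that left out 1 library. A neighbour (chr14:21004659-21005323) fell in MSCs from 30.03, 35.5 and 40.5 counts to 12.6, 14.3 and 18.2 (-1.24 ± 0.33, adjusted p = 0.0083, not passing without control library 3). An upstream region with a box (chr14:20903082-20903651) also differed between the cell types, with an interaction of 1.30 ± 0.35 (adjusted p = 0.015), lost without any of 3 single libraries.

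Srf encodes the transcription factor itself. Its TSS region (chr17:46555302-46556576), with its pair of promoter boxes, had 617, 769.8 and 789 counts in MSC controls and 767, 772 and 799 with CK666, and 639, 645 and 698 in NIH 3T3 controls and 605, 668 and 794 with CK666. The groups overlapped, and the log2 fold changes were 0.10 ± 0.07 (adjusted p = 0.49) and 0.08 ± 0.12 (adjusted p = 0.72).

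Over all 123 regions in the joint fit, the interaction passed an adjusted p under 0.05 at 3 regions in the direction of a higher change in NIH 3T3 cells and at 4 in the other, where 1.76% and 2.91% of all 368794 tested regions did. With the fold limit edgeR left 2 in the lower direction, both in Tpm1, against 0.905% of all, and 0 in the higher direction, against 0.498%, where 14 were higher at an unadjusted p under 0.05 and DESeq2 found 0. Between the untreated cell types 16 regions of the genes were more and 18 less accessible in NIH 3T3 cells at both limits, where 16.2% and 18.3% of all regions were. Acta2 at its TSS was higher in NIH 3T3 controls by 0.38 ± 0.11 (adjusted p = 0.0033) and Vcl lower by 0.84 ± 0.10 on the log2 scale (adjusted p = 2.1e-11).

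Of the 101 regions of these genes tested in both cell types, 19 were lower with CK666 in MSCs and 18 in NIH 3T3 cells at an adjusted p under 0.05. These lists shared 9 regions, 47.4% of the first and 50% of the second, and the 2 comparisons share no library. Over all 272609 regions tested in both, 2588 were shared, 23.4% of those lower in MSCs and 11.7% of those lower in NIH 3T3 cells. Acta2 contributed 3 of the 9, Actb 2, Tpm1 2, and Myl9 and Tagln 1 each, while none of the 6 Vcl regions that were lower in MSCs was lower in NIH 3T3 cells.

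Regions with a CArG box made up a large part of the lower regions at 4 h, but most regions lost at both limits held none. In MSCs 9 of 21 tested regions with a box were lower (42.9%) and 12 of 89 without one (13.5%), where 7.85% of all tested regions with a box were. The NIH 3T3 shares were 10 of 22 (45.5%) and 8 of 92 (8.70%), where 9.89% of all regions with a box were. A box also marks the regions with a TSS, of which 6 of 15 were lower in MSCs and 8 of 16 in NIH 3T3 cells, where 6.50% and 8.86% of all tested regions with a protein-coding TSS were. At both limits 2 of 21 regions with a box and 6 of 89 without one were lost in MSCs, where 0.427% of all regions were. In NIH 3T3 cells 1 of 22 and 2 of 92 were, where 1.67% of all were. After 24 h, 3 of 23 with a box and 2 of 72 without were lower with CK666, and 4 of 23 and 6 of 72 with CytoD. Of the TSS regions in MSCs at 4 h, 2 of 15 were higher, where 3.28% of all with a protein-coding TSS were. These shares are descriptions without a test.

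**Figure D2:**
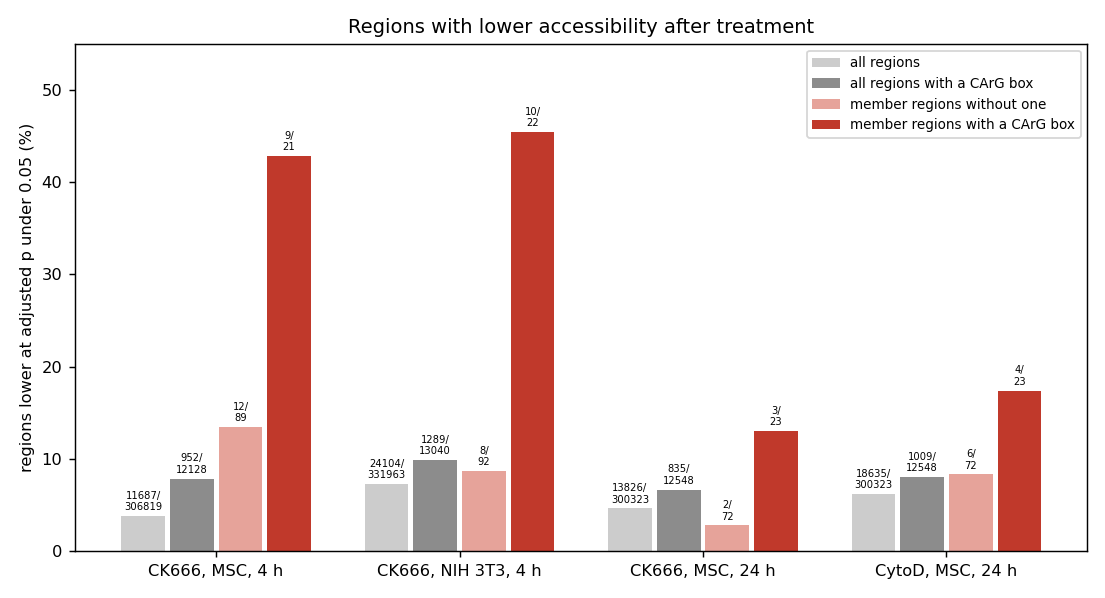
Percent of tested regions lower with treatment at an adjusted p under 0.05, for all regions, all regions with a CArG box, and the regions of the 9 genes without and with a box, in 4 comparisons. The bars for the genes' regions with a box reach 42.9% in MSCs and 45.5% in NIH 3T3 cells at 4 h, above the other bars of those comparisons.

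**Figure D3:**
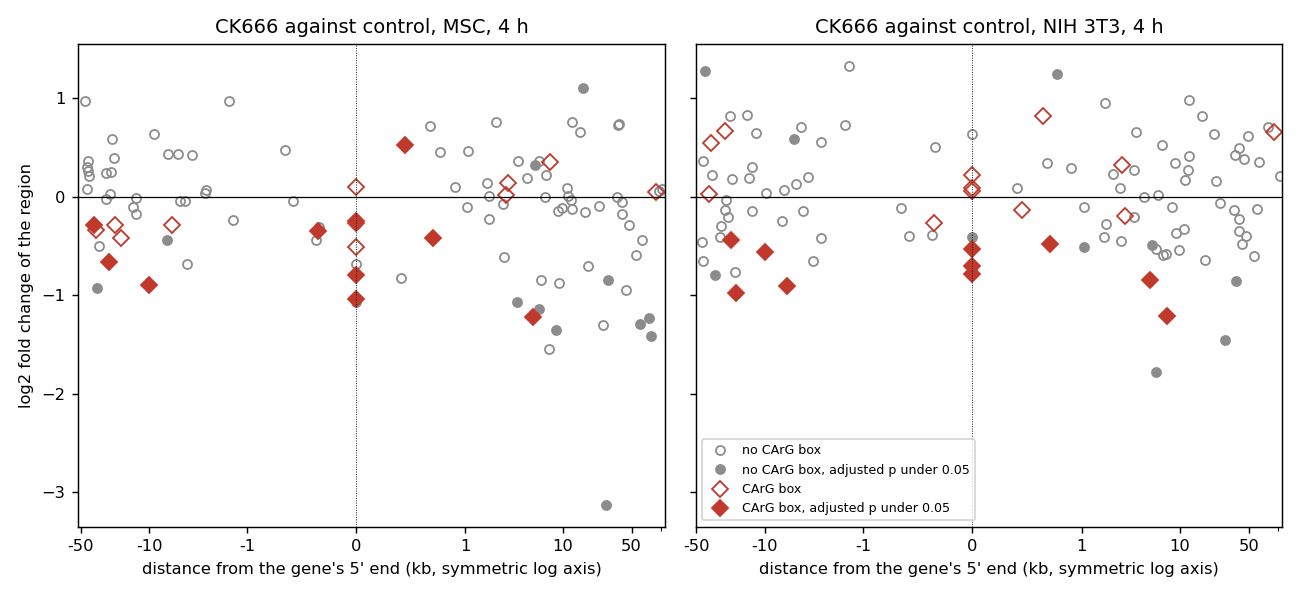
Log2 fold change with CK666 at 4 h against the distance of each region from the 5′ end of its gene in kb, on a symmetric log axis, by cell type and by whether the region holds a CArG box. Points near the start lie mostly at or below 0, and the lowest MSC point is the weak Tpm1 region at -3.13.

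When counts were summed over all regions of a gene, 5 of the 9 genes were lower with CK666 in MSCs at 4 h at an adjusted p under 0.05 and, by edgeR, 0 were higher, also at an unadjusted p under 0.05. Over all 19125 genes 9.59% were lower and 8.87% higher. Acta2 fell by 0.55 ± 0.06 on the log2 scale, Myl9 by 0.65, Tagln by 0.34, Vcl by 0.23 and Actb by 0.22. In NIH 3T3 cells 5 were lower and 2 higher, where 21.6% and 20.4% of 19249 genes were. There Tagln fell by 0.50, Myl9 by 0.45, Acta2 by 0.38, Actb by 0.36 and Tpm1 by 0.34, and Actg2 rose by 0.50 and Srf by 0.19. The summed change differed between the cell types at Vcl (interaction 0.31, adjusted p = 0.003) and at Tpm1 (-0.39), 1 in each direction, where 11.3% of 19439 genes passed in the higher and 16.6% in the lower direction. The Myl9 call in NIH 3T3 cells was lost without control library 1. The Tagln call in MSCs and the Srf call in NIH 3T3 cells were lost without CK666 library 2 or 3 or control library 1 of their cell type.

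**Figure D4:**
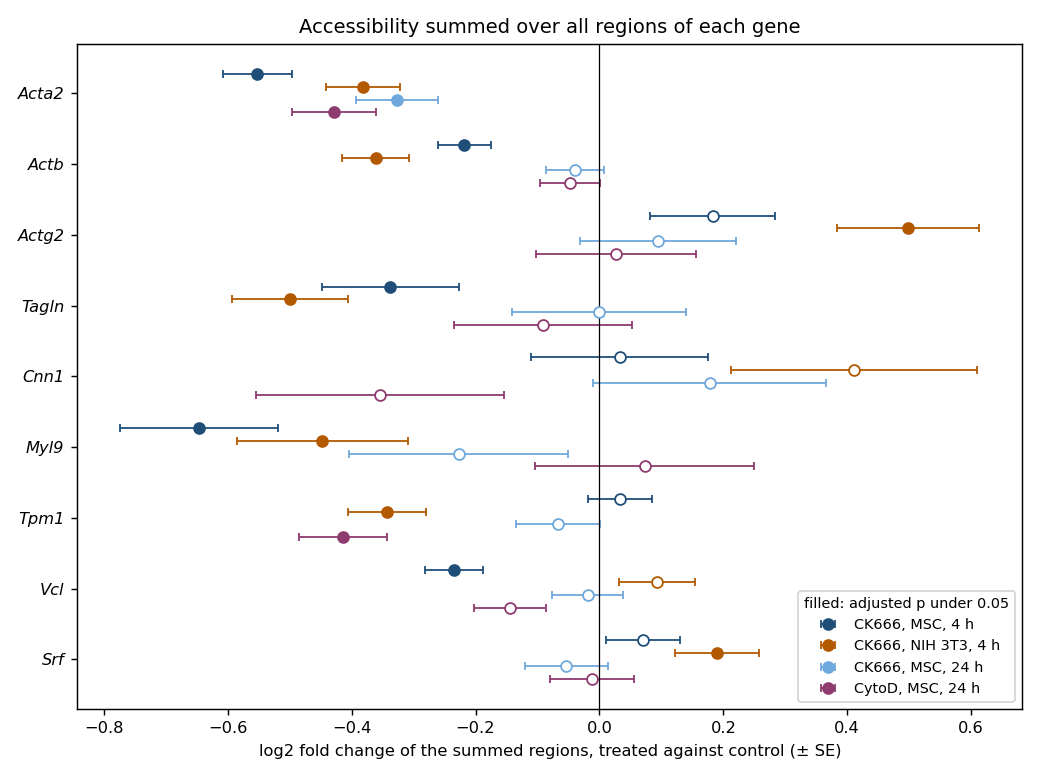
Log2 fold change of the counts summed over the regions of each of 9 genes, in 4 comparisons with control, with the SE as error bars. Filled points passed an adjusted p under 0.05, and Acta2 is filled and below 0 in all 4, from -0.33 to -0.55.

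The 24 h libraries of MSCs were counted over other regions and at lower depth than those of 4 h, so numbers of changes are not compared between the times. Of the 15 regions with a TSS of these genes, 1 was lower with CK666 and 3 with CytoD at an adjusted p under 0.05. Of all tested regions with a protein-coding TSS, 3.36% and 7.88% were. With CK666, 2 of 95 tested regions were gained, both at Vcl, where 1.88% of all 300323 tested regions were gained. By edgeR 0 were lost, against 1.06% of all, while 12 were lower at an unadjusted p under 0.05 and DESeq2 found 1 lost. At an adjusted p under 0.05, 3 were higher and 5 lower, where 4.9% and 4.6% of all regions were. With CytoD, 1 region was gained, at Vcl, and 2 were lost, at Acta2 and Tpm1, where 0.98% and 1.4% of all regions were. At an adjusted p under 0.05, 1 was higher and 10 lower with CytoD, where 3.68% and 6.2% of all regions were. The 95 regions had a median log2 fold change of 0.05 for CK666 and -0.20 for CytoD, beside 0.02 and 0.04 for all tested regions. Both treatments are compared with the same 3 control libraries, and these counts move with them, as the CytoD calls at both limits became 0 without control library 3.

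**Figure D5:**
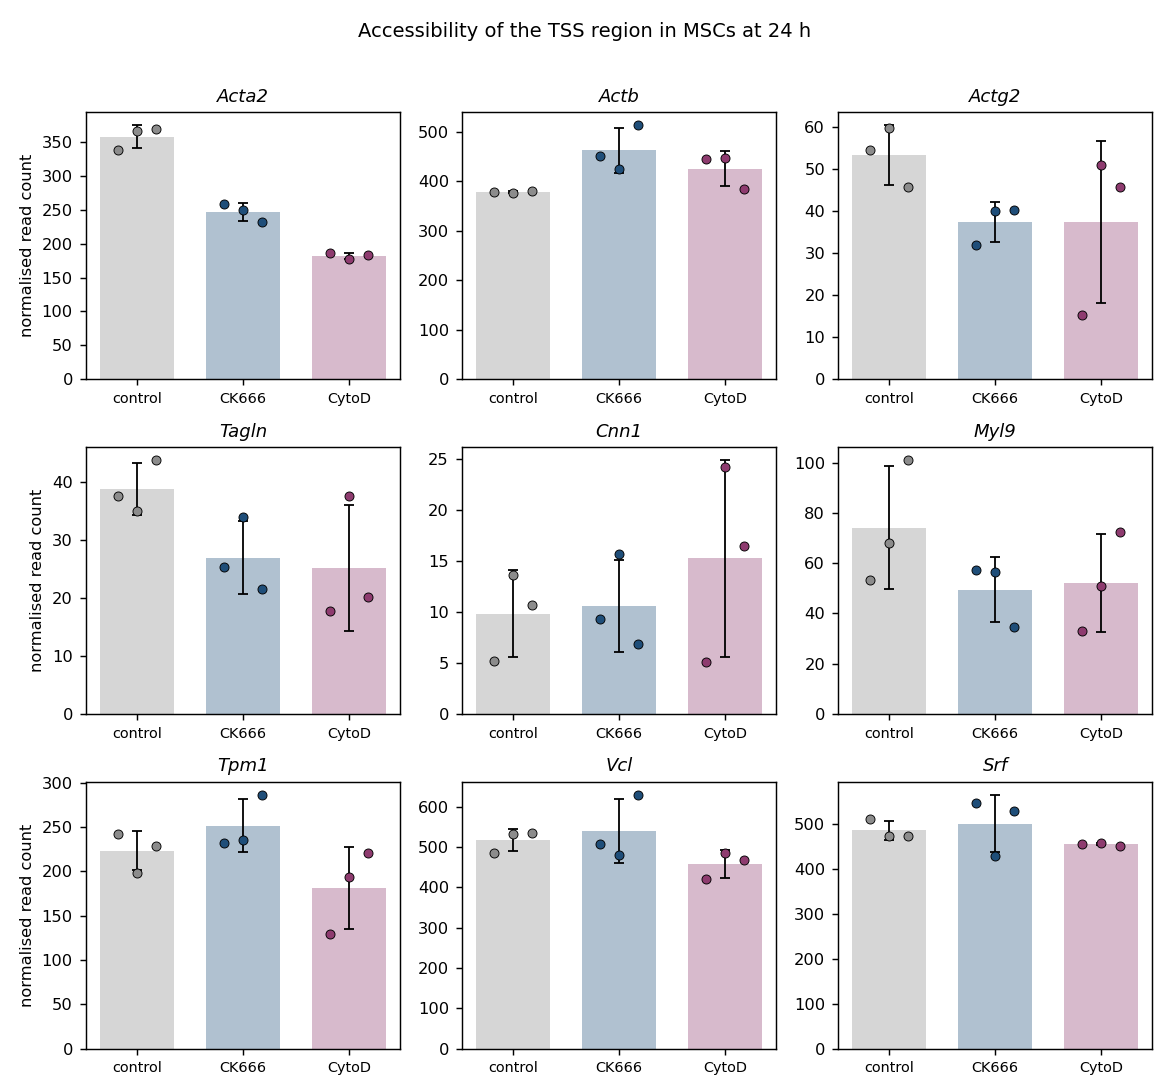
Normalised counts in the TSS region of each of 9 genes in MSCs after 24 h, in controls and with CK666 or CytoD. Bars give the mean of 3 libraries, error bars the SD and points the single libraries. Acta2 falls from control to CK666 to CytoD with no overlap, and at Srf the bars differ little.

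Of the 9 TSS regions, that of Acta2 had the smallest adjusted p with either treatment at 24 h. The region, which at this time also covers the intronic box (chr19:34253655-34255891), had 339, 367 and 370.0 counts in controls, 233, 251 and 259 with CK666, and 177, 183 and 186 with CytoD. No group overlapped another. The log2 fold change was -0.54 ± 0.11 with CK666 (adjusted p = 0.00017) and -0.98 ± 0.11 with CytoD (adjusted p = 2.5e-10), and in the direct comparison CK666 libraries were above CytoD libraries by 0.44 ± 0.12 (adjusted p = 0.0049). The upstream region with its box (chr19:34265570-34266114) had 119, 183 and 187 counts in controls, 109, 136 and 143 with CK666 and 53.4, 80.2 and 109 with CytoD. Here the CK666 and control libraries overlapped. It was lost with CytoD, just past the fold limit, at -1.001 ± 0.18 (adjusted p = 1.8e-05), and CK666 was above CytoD by 0.64 ± 0.18 (adjusted p = 0.0095, not passing without CK666 library 1 or CytoD library 1). Between the start and this region, chr19:34262489-34263006 went the other way between the treatments. It had 132, 132 and 135 counts in controls, 56.0, 68.4 and 74.8 with CK666 and 84.1, 96.7 and 118 with CytoD. Its log2 fold change with CK666 was -0.999 ± 0.18 (adjusted p = 1.5e-05), just inside the fold limit, and CK666 was below CytoD by 0.57 on the log2 scale (adjusted p = 0.03, lost without any of 4 single libraries).

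The Actb TSS region at 24 h (chr5:142903572-142906274) lies inside the gene and does not reach its annotated 5′ end. It had 377, 378 and 381 counts in controls, 425, 450.4 and 513 with CK666 and 384, 445 and 447 with CytoD. The log2 fold changes were 0.29 ± 0.10 with CK666 (adjusted p = 0.04, lost in 8 of the 9 fits that left out 1 library) and 0.16 with CytoD (adjusted p = 0.32). The region at the 5′ end with the promoter box (chr5:142906503-142907054) changed by -0.32 with CK666 (adjusted p = 0.12) and -0.35 with CytoD (adjusted p = 0.082). Neither passed, though all libraries of each treatment lay below all controls there. Past the 3′ end of the gene, chr5:142898350-142901055 fell with CK666 by 0.52 ± 0.16 on the log2 scale (adjusted p = 0.022). The region chr5:142901243-142903427, which overlaps the 3′ end, fell with CytoD by 0.43 ± 0.14 (adjusted p = 0.028). These calls were lost in 4 and 3 of the 9 fits that left out 1 library, in both cases also without control library 1. At Actg2 the TSS log2 fold changes were -0.51 and -0.49, and neither passed.

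Among the genes of actin-binding proteins, Tagln changed at 24 h with CytoD in a region just upstream of its promoter (chr9:45936607-45937403), which had 69.7, 92.0 and 101 counts in controls, 87.9, 89.0 and 93.4 with CK666, and 37.5, 50.9 and 65.6 with CytoD. All CytoD libraries were below all others. The log2 fold change was -0.78 ± 0.22 (adjusted p = 0.0095), and CK666 was above CytoD by 0.83 ± 0.21 (adjusted p = 0.0038), both not passing without CytoD library 3. The promoter region of Tagln itself changed by -0.52 with CK666 (adjusted p = 0.36) and -0.63 with CytoD (adjusted p = 0.24), and that of Myl9 by -0.60 (adjusted p = 0.11) and -0.50 (adjusted p = 0.21). At Cnn1 the TSS region by the rule used here, which holds the box (chr9:22099851-22100390), was also weak. It changed by 0.08 with CK666 (adjusted p = 0.96) and 0.59 with CytoD (adjusted p = 0.56). Another weak Cnn1 region, around the 5′ end (chr9:22098841-22099367), had 11.6, 19.5 and 19.6 counts in controls, 3.75, 9.83 and 11.3 with CK666, and 2.54, 3.66 and 4.86 with CytoD (-2.15 ± 0.68 with CytoD, adjusted p = 0.028, lost without any of 4 single libraries).

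Tpm1 fell mainly with CytoD. The region at its upstream start (chr9:67049123-67049944) had 195, 201 and 207 counts in controls, 135, 160.2 and 174 with CK666 and 131, 137 and 140.0 with CytoD (-0.57 ± 0.14 with CytoD, adjusted p = 0.0027). A weak intronic region (chr9:67026783-67027349) had 12.8, 17.0 and 22.1 counts in controls, 2.95, 10.4 and 15.9 with CK666 and 0, 2.43 and 3.66 with CytoD (-2.90 ± 0.75, adjusted p = 0.005). A region with a box (chr9:67045874-67046600) fell with both treatments, by 1.13 ± 0.35 with CK666 (adjusted p = 0.028) and 1.16 ± 0.36 with CytoD (adjusted p = 0.027) on the log2 scale. Each call was lost in 3 of the 9 fits that left out 1 library, in both cases also without control library 1. At the internal start (chr9:67043123-67044192) neither treatment passed against control, at 0.18 and -0.28, while CK666 was above CytoD by 0.46 (adjusted p = 0.013, not passing without CK666 library 3 or CytoD library 1).

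The gained regions at 24 h, 2 of 95 with CK666 and 1 with CytoD, lay at Vcl, with few counts and away from its start. These numbers are near the 1.88% and 0.98% of all regions that were gained. Over the 23 Vcl regions the median log2 fold change was -0.11 with CK666 and -0.20 with CytoD. The summed Vcl counts changed by -0.02 and -0.14, and neither passed. In an intronic region (chr14:20945252-20945856) the counts were 10.2, 10.7 and 18.2 in controls, 27.0, 31.8 and 53.1 with CK666 and 25.4, 40.2 and 51.0 with CytoD, so both treated groups lay above the controls. The log2 fold changes were 1.55 ± 0.36 (adjusted p = 0.0013, not passing without CK666 library 3) and 1.62 ± 0.37 (adjusted p = 0.00091). An upstream region (chr14:20883009-20883892) had 10.7, 13.6 and 32.5 counts in controls, 45.0, 47.2 and 53.1 with CK666 and 19.4, 25.6 and 28.0 with CytoD, and rose with CK666 by 1.43 ± 0.33 (adjusted p = 0.0014). The Vcl TSS region changed by 0.05 with CK666 and -0.18 with CytoD, and the Srf TSS region by 0.05 and -0.09, and none of these passed.

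Set directly against each other at 24 h, CK666 and CytoD differed by edgeR at 0 of the 95 regions at both limits, where 2.14% of all regions were higher and 1.14% lower with CK666, and DESeq2 also found 0. At an unadjusted p under 0.05, 16 were higher and 2 lower. At an adjusted p under 0.05, 8 regions were higher and 1 lower with CK666 than with CytoD, where 7.34% and 4.24% of all regions were. In counts summed per gene, Acta2 alone was lower with CK666, by 0.33 ± 0.07 on the log2 scale, and Acta2 and Tpm1 were lower with CytoD, by 0.43 ± 0.07 and 0.41, where 12.3% and 14.8% of 18827 genes were lower. The libraries also differed in marker levels. The summed TSS level per kb of the 7 stromal markers with a tested TSS region (of 11) was 2053 to 2261 in controls, 1838 to 1978 with CK666 and 1605 to 1774 with CytoD. That of the 5 smooth muscle markers (of 6) was 357 to 461, 498 to 529.7 and 435 to 534. Their part in the results at Acta2, Tpm1 and Vcl was not tested.

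Genes whose summed counts followed the mean of the 9 genes most closely over the 9 libraries at 24 h were Zfand4 (Pearson r 0.957), Rpl39 (0.949), Zc3hav1l (0.948), Pdlim7 (0.946) and Dbx1 (0.940). These are descriptions over libraries that fall into 3 groups and share their normalisation.

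Other genes of the pathway were read from lists of the same kind. Of 26 further MRTF-SRF targets, 12 had a region that was lost in MSCs after 4 h of CK666, with 54 of 635 regions lost and 1 gained, where 0.427% and 0.59% of all regions were. They included a region at Ccn2, which encodes a matricellular growth factor (-2.48 ± 0.10, adjusted p = 2.5e-35), a region past the 3′ end of Zyx, which encodes the adhesion protein zyxin (-1.37 ± 0.08), the TSS region of Cald1, which encodes the actin-binding protein caldesmon and there holds a CArG box (-1.10 ± 0.07), and an intron of Myh9, which encodes a non-muscle myosin heavy chain (-1.12 ± 0.08). Of this list 10 of 632 regions were lost in NIH 3T3 cells and 12 were gained, near the 1.67% and 1.87% of all regions, with the Ccn2 region again lost (-1.55 ± 0.16) and an upstream region of Cald1 gained (1.39 ± 0.20). After 24 h the list had 12 lost and 6 gained of 608 regions with CK666, where 1.06% and 1.88% of all regions were, and 17 lost and 3 gained with CytoD, where 1.4% and 0.98% were. An Actn1 intron, in the gene of a filament crosslinker, was lost with each, at -1.05 ± 0.12 and -1.35 ± 0.13.

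Among 17 genes of proteins that bind or handle actin monomers, 40 of 319 regions were lower in MSCs and 41 of 321 in NIH 3T3 cells after 4 h of CK666 at an adjusted p under 0.05, where 3.81% and 7.26% of all regions were. Higher were 3 and 5, where 3.56% and 5.89% of all were. A region with a CArG box upstream of Tmsb4x, the gene of the monomer-holding peptide thymosin beta-4, was lost in both (-1.18 ± 0.15 and -1.96 ± 0.16), as were regions of Cap1, which encodes a monomer-binding protein (-1.07 ± 0.16 and -1.76 ± 0.14 at different positions). Among the 6 genes of SRF cofactors, 22 of 158 regions were lower and 6 higher with CK666 at 24 h, where 4.6% and 4.9% of all regions were, and 28 lower and 1 higher with CytoD, where 6.2% and 3.68% were. At 4 h 19 of 166 were lower and 4 higher in MSCs, where 3.81% and 3.56% of all regions were. In NIH 3T3 cells 10 of 170 were lower and 12 higher, where 7.26% and 5.89% of all regions were. Introns of Mrtfa (-1.45 ± 0.21 and -1.08 ± 0.19, at different positions) and a region upstream of Myocd (-1.31 ± 0.25 and -1.66 ± 0.27, at the same position) were lost with each treatment, which share their controls. Mrtfa encodes an MRTF, and Myocd its relative myocardin, which is not held by actin.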

How the data were processed

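ATAC-seq libraries of mouse cells were compared in 7 groups of 3. Per the methods and the labels, the authors prepared libraries from 50000 MSCs each, processed paired reads with PEPATAC, bowtie2 and MACS2 on mm10 and merged peaks into consensus regions, with versions and settings not given in the sources used here. The authors deposited the raw read counts per region, without normalisation, one table for 24 h and one for 4 h, and levels were not compared across them. The 9 siRNA libraries were not used.

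Regions were assigned to protein-coding TSSs of GENCODE vM21, whose build matches mm10, within 50 kb. Counts were tested with edgeR 4.0.16 (quasi-likelihood test, TMM, its filter on low counts, R 4.3.3), in a fit of 9 libraries at 24 h, fits of 6 per cell type at 4 h, and a fit of 12 for the interaction and the untreated cell types. P-values were Benjamini-Hochberg adjusted over all regions or genes of a table. Lost and gained regions passed the limits of the study, a log2 fold change beyond 1 at an adjusted p under 0.01. Higher and lower mean an adjusted p under 0.05. TMM centres on most regions, so a shift of all regions would not be seen. The test was checked on simulated counts. Alternatives were DESeq2 1.42.0 or its size factors, scaling by total counts, removal of the trend with GC content, no filter, only the 2 groups compared, all 12 libraries at 4 h, a replicate block, a TSS within 5 kb, genes of any type, an adjusted p alone, and leaving out each library.

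The genes and pathway lists were chosen with earlier results of these data known. For each gene the region with the TSS and the highest mean count, each called region and, failing one, the region with the smallest adjusted p were named, and for a pathway list at most 4 genes per comparison with the smallest adjusted p. The further regions named, with and without CArG boxes, were chosen after their values were seen. CArG boxes are exact matches in the reference sequence. Per-library values are counts divided by TMM-scaled library size.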

Additional observations from a re-analysis of the deposited data

Results flagged for a closer look

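The effect of 4 h of CK666 differed between MSCs and NIH 3T3 cells at 7 regions and in 2 gene sums, by the interaction test of edgeR at an adjusted p under 0.05 over all regions or genes. The values are the log2 fold change in NIH 3T3 cells minus that in MSCs. At Actb the difference was 0.83 at the 3′ end (chr5:142901819-142903390), where MSCs fell, and -0.69 in the region with a TSS (chr5:142905738-142906303), where MSCs rose. At Tpm1 it was -1.58 in the intronic region with a CArG box (chr9:67040775-67042058), -0.84 at the internal start (chr9:67043680-67044253) and -1.62 past the 3′ end (chr9:67011492-67012093), and -0.39 in the summed counts. At Vcl it was 1.30 in an upstream region with a box (chr14:20903082-20903651), 2.09 in the gene (chr14:21008586-21009492) and 0.31 in the summed counts. With 3 libraries per group, single libraries could not be tested as outliers.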

How the results depend on the processing

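Only alternatives that moved a count by over 1.5 times are given, and the cause was not tested unless the alternative itself has fewer regions or libraries. By DESeq2, which gave no adjusted p to 20 regions for CK666 and 23 for CytoD at 24 h and 49 in MSCs at 4 h, CK666 exceeded CytoD at 5 regions in place of 8 and was below it at 0 in place of 1. In MSCs at 4 h it left 5 lost regions of 8, 13 lower of 21 and 1 higher of 3, and in NIH 3T3 cells 0 higher of 3. A TSS within 5 kb, which keeps fewer regions, left 0 calls at both limits for CK666 at 24 h, with 1 higher, and 0 for CytoD, with 6 lower and 0 higher, and 0 regions lower with CK666 than CytoD. At 4 h it left 5 lost and 10 lower in MSCs, 11 lower and 1 higher in NIH 3T3 cells, 1 interaction at both limits of 2, and 11 differences between untreated cells of 34. With an adjusted p under 0.05 alone the counts at both limits became 8 (CK666) and 11 (CytoD) at 24 h, 9 between them, 24 in MSCs and 21 in NIH 3T3 cells at 4 h, 7 for the interaction and 60 between untreated cells. In the fit of 12 libraries MSCs had 11 lower and 1 higher at 4 h. With genes of any type CK666 at 24 h kept 1 call of 2, and with no filter CytoD had 5 in place of 3. Scaled by total counts, NIH 3T3 cells had 6 higher regions in place of 3 and 4 higher gene sums in place of 2, and the interaction 2 higher gene sums in place of 1.

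Leaving out 1 library at a time, calls at both limits ranged from 1 to 3 for CK666 at 24 h (1 without CK666 library 3 or control library 2 or 3), 0 to 5 for CytoD (0 without control library 3, 1 without control library 2, 5 without CytoD library 3 or CK666 library 1 or 3) and 0 to 2 between them (2 without CytoD library 3). At 4 h they ranged from 5 to 8 in MSCs, 3 to 7 in NIH 3T3 cells, 1 to 3 for the interaction and 29 to 35 between untreated cells. Lower regions ranged from 2 to 5 for CK666 at 24 h (2 without CK666 library 1 or 2), 7 to 11 for CytoD, 0 to 1 between them, 12 to 21 in MSCs and 9 to 19 in NIH 3T3 cells at 4 h. Higher regions ranged from 1 to 3, 1 to 2, 4 to 10 (4 without CK666 library 3), 1 to 2 and 0 to 5 (0 without NIH 3T3 control library 3) in the same order. Gene sums ranged from 1 to 2 higher between CK666 and CytoD, 1 to 2 higher in NIH 3T3 cells, and 1 to 2 lower for the interaction.

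The changes that turned in sign were all close to 0 and had not passed the test. Without single libraries, log2 fold changes at 24 h ranged with CK666 from -0.33 to 0.35 at a Cnn1 region, from -0.04 to 0.13 at the Srf TSS and from -0.10 to 0.12 at the Vcl TSS, and in sums from -0.09 to 0.11 at Tagln and from -0.09 to 0.02 at Vcl. With CytoD the sums ranged from -0.03 to 0.09 at Actg2, -0.22 to 0.02 at Tagln, -0.04 to 0.03 at Srf and -0.28 to 0.23 at Myl9. At 4 h they ranged in MSCs from -0.00 to 0.16 at the Srf TSS, -0.04 to 0.08 in the Cnn1 sum and -0.01 to 0.15 in the Srf sum, and in NIH 3T3 cells from -0.06 to 0.16 at the Srf TSS and -0.05 to 0.09 at the Vcl TSS. Total counts gave 0.03 for the Tagln and 0.01 for the Vcl sum with CK666 at 24 h and 0.01 for the Srf sum with CytoD, and a TSS within 5 kb gave -0.01 for the Actg2 sum with CytoD. With the replicate number as a block, the counts at both limits were 3 for CK666 and 3 or 4 for CytoD at 24 h, and 8 in MSCs and 3 or 4 in NIH 3T3 cells at 4 h, and no count moved by over 1.5 times. Deviations of libraries with the same number correlated between -0.07 and 0.03, so the number is not taken to pair them. Depth limits the regions with few counts, where the SE of a called log2 fold change reached 0.75, at Tpm1 with CytoD.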

Other observations

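Immediate early genes, which SRF drives with other cofactors when serum is added, were read as a further list of 9 genes. After 24 h of CK666 in MSCs 4 of 137 regions were gained, where 1.88% of all regions were. They were assigned to Egr1 (1.93 ± 0.27 on the log2 scale, 31731 bp from its TSS), Fos (2.12 ± 0.38, in a region upstream, 37116 bp from its TSS) and Fosb (1.90 ± 0.48), which encode transcription factors. The upstream Fos region contains the annotated start of another gene, one that is not protein-coding. With CytoD the upstream Fos region was also gained (1.46 ± 0.41, adjusted p = 0.0098), and a region at Fosb was lost (-1.05 ± 0.21). Set against each other, CK666 was above CytoD at the Egr1 region by 1.80 ± 0.28. After 4 h of CK666, 14 of 130 regions were higher and 4 lower in NIH 3T3 cells at an adjusted p under 0.05, where 5.89% and 7.26% of all regions were, with the upstream Fos region gained (1.05 ± 0.23, 37188 bp from the TSS) and a region over the 3′ end of Egr1 lost (-1.31 ± 0.19). In MSCs 5 of 119 were higher and 3 lower, where 3.56% and 3.81% of all regions were.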
